A study of Saccharomyces cerevisiae with 10 samples.

Results

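Dbp2 is a DEAD-box RNA helicase of budding yeast, Saccharomyces cerevisiae. The RNA of a strain without it (dbp2, 2 libraries) is described here beside that of a wild type (WT, 2 libraries), which makes 4 of the 10 libraries of the series, chosen by their labels, over all 10799 yeast features in the table. Both strains are MATa and BY4741 per the labels. The dbp2 strain has the alleles his3Δ0, leu2Δ0, ura3Δ0 and dbp2Δ::KanMX6, a methionine defect written met-, and a lysine allele marked with a question mark. The WT strain has his3Δ1, leu2Δ0, met15Δ0 and ura3Δ0. Both grew in the rich medium YPD at 30 °C to an OD600 of 0.5, and stranded libraries were made from 125 ng of RNA after ribosomal RNA was removed. The other libraries share the model fit: xrn1 (the WT alleles with xrn1Δ::kanMX4), and a doxycycline pair in BMA64-1A. In that pair, tet-MTR4-Dox carries kanMX6-tetOFF::MTR4, and WT-Dox shares its other alleles, which are ura3-1, trp1Δ2, leu2-3,112, his3-11,15, can1-100 and ade2-1 in a MATa strain. Both were kept in 10 µg/mL doxycycline for 6 hours.

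DEAD-box helicases use ATP to part short RNA duplexes and to move proteins off RNA. Dbp2 is mostly nuclear, is found with chromatin that is being transcribed, and is known to help load the export factors Yra1 and Mex67 onto new messenger RNA. In yeast its loss has been tied to transcripts made from within or against genes, to sugar metabolism and to long noncoding RNA. The noncoding classes in these files are known by the factor whose loss reveals them. That is the cytoplasmic exonuclease Xrn1 for XUTs, the nuclear exosome for CUTs, and the termination factor Nrd1 for NUTs.

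The deleted gene was checked first. DBP2 (YNL112W, chromosome XIV 413639 to 416281, plus strand, R64 build) had 8 and 12 reads in the dbp2 libraries, against 10614 and 13613 in the WT libraries. The ratio of dbp2 to WT, scaled for depth, was 0.000929 (95% exact interval 0.000568 to 0.00144, for counting error only). LYS2, which encodes alpha-aminoadipate reductase of lysine synthesis, had 2 and 2 reads in dbp2, against 5193 and 6208 in WT. MET17, the sulfhydrylase also called MET15, ran the other way, with 2358 and 3180 reads in dbp2, against 2 and 1 in WT, although the dbp2 label says met-. HIS3 density was 1.43 and 1.40 in dbp2 and 0.550 and 0.556 in WT, although the dbp2 label says his3Δ0. That is a rise of 1.35 on the log2 scale, where the median protein-coding gene rose by 0.81. Relative to that gene HIS3 rose by 0.51, and the upper quartile of protein-coding genes was 0.42. At the other markers, LEU2 had 1 and 1 reads in dbp2 and 1 and 0 in WT, and URA3 had 4 and 4 in dbp2 and 0 and 2 in WT. The strains thus differ widely in transcripts of LYS2 and MET17 besides DBP2, while HIS3 rose somewhat more than the median gene. Effects of these loci, or of any other difference between the strains, cannot be told apart from the effect of losing Dbp2.

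The 8 neighbours of DBP2 were read in all 4 libraries, and 6 were called higher on the spike-in scale (75%, against 84.8% of all features). On the relative scale, described next, 4 were called higher and 2 lower (50% and 25%, against 43.8% and 28.2% of all features). The largest change was that of YNL114C, an open reading frame with no RefSeq protein, at 0.130 and 0.136 in dbp2 and 0.0149 and 0.0285 in WT, a log2 change of 2.36 (relative 1.66, on the scale described next). YNL109W, of the same kind, rose by 1.59 and the ubiquitin ligase gene DMA2 by 0.71 (relative -0.12, not called), while YNL108C had a log2 difference of 0.098 that was not called (relative -0.74). RPC19, a subunit shared by RNA polymerases I and III, rose by 1.16 and NOP15, a ribosome assembly factor, by 1.46 on the log2 scale. CYB5, cytochrome b5, had 1.09 and 1.06 in dbp2 and 1.05 and 0.976 in WT, a log2 difference of 0.087 that was not called, and YNL115C had 0.73. After the rescaling described next, CYB5 stood at -0.75 and YNL115C at -0.094. The a-cell genes were expressed, as the label MATa says: MFA1, the a-factor precursor, had 14.5 and 13.2 in dbp2 and 5.36 and 5.35 in WT. MFA1 had the largest rise of 7 a-specific genes, of which 1 was called higher and 5 lower on the relative scale. MF(ALPHA)1, the alpha-cell counterpart of MFA1, had 5 and 5 reads in dbp2 and 1 and 4 in WT. Other alpha-specific genes had more: the a-factor receptor STE3 had 80 and 109 reads in dbp2 and 14 and 40 in WT, and the agglutinin SAG1 had 667 and 936 in dbp2 and 475 and 521 in WT. The ratios of dbp2 to WT, scaled for depth, were 3.94 for STE3 and 1.81 for SAG1.

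Values are normalised densities in the authors' arbitrary unit, reads per feature length after a per-library scaling that follows the ERCC spike-in RNAs, so levels can be set side by side between genes. The dbp2 libraries hold 19.6 M and 27.0 M reads and the WT libraries 18.8 M and 23.7 M. Per ERCC read, the yeast features held 43.7 and 41.5 reads in dbp2, against 35.3 and 33.6 in WT. A change on this spike-in scale has the test of limma with Benjamini-Hochberg adjustment over the 9666 features kept, and is called where the adjusted p is under 0.05. On it the median protein-coding gene was 1.75-fold higher in dbp2 (log2 0.81, 0.73 to 0.88 over the pairs of libraries), and 8201 features (84.8%) were called higher and 514 (5.32%) lower. Both dbp2 libraries lay above both WT libraries for 8527 features (88.2%) and below them for 648 (6.7%). How the ERCC RNAs were added is not given in the sources used here, so that more RNA per cell and other sources of this shift cannot be told apart. In RNA from whole cultures, fewer cells of a kind and less RNA per cell cannot be told apart either.

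Most features thus moved together, and each is also given relative to the median protein-coding gene, after every library was rescaled on that gene. A relative log2 of 0 means that a gene moved like the median one. On the relative scale 4233 features (43.8%) were called higher and 2722 (28.2%) lower, and among protein-coding genes 2155 of 5613 (38.4%) were higher and 2323 (41.4%) lower. On the spike-in scale 83.9% of protein-coding genes were called higher and 7.86% lower. Counts for gene lists and classes below are to be read beside these shares. Only a small part of these changes was large: 269 features were called with a relative rise of at least 4-fold, 124 of them protein-coding, and 52 with a fall of that size, 43 of them protein-coding. Rescaling on the median of all features instead puts the median protein-coding gene at -0.24.

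The protein-coding genes with the largest fitted log2 rises were HSP12 and DDR2, of the general stress response, above the 7.90 of the strain marker MET17. In yeast the zinc-finger factors Msn2 and Msn4 enter the nucleus under stress or poor nutrition and bind the stress response element, whose core is CCCCT. HSP12, a small membrane-stabilising protein, had 49.7 and 46.3 in the dbp2 libraries, against 0.136 and 0.125 in the WT libraries. Its density in WT was under 0.192, the lower quartile of protein-coding genes there, and the groups did not overlap. The log2 change was 8.46 ± 0.10 (SE, limma adjusted p = 3.41e-12), and the relative one 7.64. DDR2, a small protein induced by DNA damage and heat, had 21.5 and 18.2 in dbp2, against 0.0895 and 0.0455 in WT, a log2 change of 8.14.

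These promoter stretches, from 500 to 201 bases before the start codon, are shown because both genes carry the stress element there. Capitals mark CCCCT or its reverse complement AGGGG, found by search of both strands in the RefSeq genome (R64), at VI:106756-107055 (plus) for HSP12 and XV:231956-232255 (minus) for DDR2.
HSP12 promoter: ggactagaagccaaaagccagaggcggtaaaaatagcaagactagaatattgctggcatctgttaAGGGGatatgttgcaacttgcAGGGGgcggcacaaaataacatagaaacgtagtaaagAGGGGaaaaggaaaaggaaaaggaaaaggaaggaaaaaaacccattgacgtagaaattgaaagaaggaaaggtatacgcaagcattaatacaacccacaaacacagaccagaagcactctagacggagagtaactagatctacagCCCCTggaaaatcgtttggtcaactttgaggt
DDR2 promoter: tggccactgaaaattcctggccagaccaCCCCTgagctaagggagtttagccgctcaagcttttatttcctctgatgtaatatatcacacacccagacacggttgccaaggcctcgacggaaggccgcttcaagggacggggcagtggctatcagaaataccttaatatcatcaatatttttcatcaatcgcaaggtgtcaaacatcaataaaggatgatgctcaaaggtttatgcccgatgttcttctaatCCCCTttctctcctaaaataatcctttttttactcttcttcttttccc
In windows of this length the element was in 22 of 36 genes of the stress list (61.1%), against 1263 of 5613 protein-coding genes (22.5%). Of the 124 protein-coding genes with a relative rise of at least 4-fold, 59 (47.6%) held it.

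Of the 36 genes in the stress list, 35 were called higher on the spike-in scale, and 33 higher and 2 lower on the relative scale, with a median relative log2 of 2.43, where the median of all protein-coding genes is -0.017. SIP18, a protein of desiccation tolerance, had 1.68 and 1.41 in dbp2 and 0.0122 and 0.0231 in WT, and GRE1, a hydrophilin like it, had 0.982 and 0.880 in dbp2 and 0.0145 and 0.0198 in WT. SOL4, a 6-phosphogluconolactonase, had 1.15 and 0.973 in dbp2 and 0.0342 and 0.0227 in WT. All 3 were raised in each dbp2 library over each WT library, by 6.05, 5.33 and 4.96 on the log2 scale. RTC3 had 5.29 and 4.71 in dbp2 and 0.146 and 0.147 in WT. HSP26, a small heat shock protein that holds unfolded proteins, had 2.78 and 2.48 in dbp2 and 0.0992 and 0.0904 in WT. Catalase T, CTT1, chosen after its values were seen, had 0.660 and 0.550 in dbp2 and 0.0429 and 0.0343 in WT, a log2 change of 3.77.

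Not all of the list rose. GPD1, the glycerol-3-phosphate dehydrogenase of the osmotic response, had 1.79 and 1.59 in dbp2 and 1.83 and 1.64 in WT, with overlapping groups, a log2 difference of -0.038 that was not called and a relative log2 of -0.87. The regulators themselves were set apart: MSN4 rose by 2.50 (relative 1.67), whereas MSN2 rose by 0.97, close to the median gene (relative 0.14, and -0.083 when rescaled on all features). Both regulators were chosen after their values were seen. Several steep rises lay outside the list. COX26, a small subunit of cytochrome c oxidase, had 5.93 and 5.31 in dbp2 and 0.0722 and 0.0519 in WT. NCA3, a cell wall protein tied to mitochondrial ATP synthase expression, had 5.35 and 4.69 in dbp2 and 0.102 and 0.0796 in WT. PIR3, an O-glycosylated cell wall protein, had 2.62 and 2.09 in dbp2 and 0.0446 and 0.0358 in WT. The log2 changes of these genes were 6.38, 5.71 and 5.66. The mitochondrial protein FMP16, also outside the list, rose by 5.44, and the list members PAI3, a proteinase A inhibitor, and SPI1, a cell wall protein, rose by 4.05 and 3.99. The metallothionein copies CUP1-1 and CUP1-2 were also higher, but the copies are near-identical, so their reads could be split between them, and CUP1-1 differed between the dbp2 libraries, at 1.37 and 3.80, against 0.00498 and 0.00759 in WT.

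The same genes were read in the other mutants. HSP12 had 2.25 and 1.90 in xrn1, and 2.39 and 2.20 in tet-MTR4-Dox, against 0.0531 and 0.0451 in WT-Dox. The xrn1 contrast shares its WT libraries with that of dbp2, so the mutants were compared directly. Relative to the median gene, 26 of the 36 stress genes were called higher and 6 lower in dbp2 than in xrn1, where 44.7% of all features were called higher and 29.0% lower, and HSP12 was higher by 5.74, DDR2 by 5.48 and SIP18 by 4.86 on the log2 scale. PIR3 stood at 2.59 and 2.47 in xrn1, within the range of the dbp2 libraries.

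**Figure D1:**
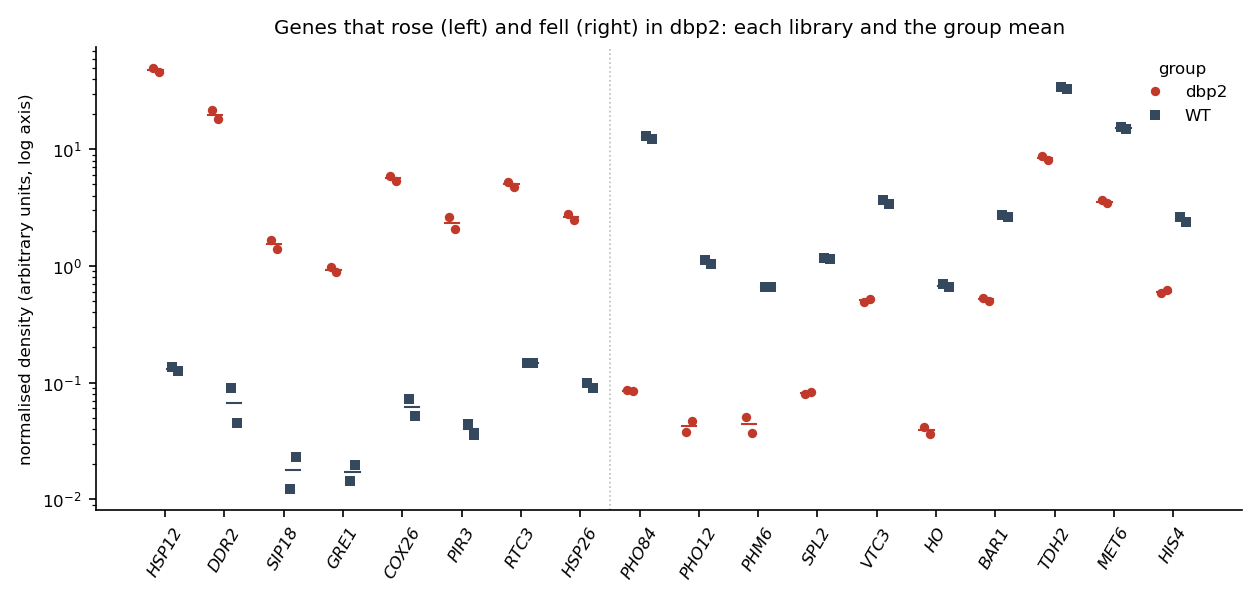
Normalised density (arbitrary units, log axis) of genes that rose (left of the dotted line) or fell (right) in dbp2, with one symbol per library, circles for dbp2 and squares for WT, and short bars at the group means. No gene shown has overlapping groups, but non-overlap was a condition of the rule that named the genes with the largest changes. Of all features, 88.2% had both dbp2 libraries above both WT libraries and 6.7% below. HSP12 stands at 49.7 and 46.3 in dbp2, against 0.136 and 0.125 in WT, and PHO84 at 0.0863 and 0.0839 in dbp2, against 13.0 and 12.3 in WT.

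The steepest fall, apart from DBP2 and LYS2, was that of the phosphate transporter. Yeast senses inorganic phosphate through the cyclin and kinase Pho80 and Pho85, which, when phosphate is plentiful, keep the factor Pho4 out of the nucleus. Pho4, with Pho2, otherwise binds CACGTG and turns on genes for phosphate uptake, release and storage. PHO84, the high-affinity transporter, had 0.0863 and 0.0839 in dbp2, against 13.0 and 12.3 in WT. Both dbp2 libraries lay far below both WT libraries, and the log2 change was -7.12 ± 0.10 (SE, limma adjusted p = 1.90e-11). In the other libraries PHO84 stood at 24.8 and 24.9 in xrn1, 5.16 and 6.81 in tet-MTR4-Dox and 18.7 and 18.2 in WT-Dox. Relative to the median gene it was lower in dbp2 than in xrn1, with a log2 difference of -6.86.

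The promoter windows of PHO84 (XIII:26001-26300, minus strand) and of the acid phosphatase gene PHO12 (VIII:551599-551898, plus strand), again 500 to 201 bases before the start codon in the RefSeq genome (R64), are shown because both genes fell steeply and both windows hold CACGTG, in capitals. The letters are their own reverse complement, are also those of the factor Cbf1, and cannot overlap CCCCT or AGGGG.
PHO84 promoter: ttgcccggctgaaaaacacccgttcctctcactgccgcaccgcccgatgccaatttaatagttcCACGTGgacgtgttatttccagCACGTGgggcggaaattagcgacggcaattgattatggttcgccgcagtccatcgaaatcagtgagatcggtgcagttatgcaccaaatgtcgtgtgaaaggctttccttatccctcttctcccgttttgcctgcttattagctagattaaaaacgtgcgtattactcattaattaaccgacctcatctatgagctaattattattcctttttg
PHO12 promoter: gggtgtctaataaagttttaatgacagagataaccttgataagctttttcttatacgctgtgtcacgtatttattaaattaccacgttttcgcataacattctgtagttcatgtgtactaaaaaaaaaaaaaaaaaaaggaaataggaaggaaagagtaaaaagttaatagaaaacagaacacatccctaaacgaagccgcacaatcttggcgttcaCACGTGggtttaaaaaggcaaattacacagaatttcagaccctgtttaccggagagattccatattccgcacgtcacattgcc
CACGTG was in the windows of 12 of 27 genes of the phosphate list (44.4%), against 243 of 5613 protein-coding genes (4.33%). It was also in 12 of the 43 protein-coding genes with a relative fall of at least 4-fold (27.9%), and in 19 of 33 methionine and sulfur genes (57.6%).

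Of the 27 phosphate genes, 12 were called higher and 13 lower on the spike-in scale, and 3 higher and 20 lower on the relative scale, with a median relative log2 of -0.79. The list's direction therefore depends on the scale, while the genes named next with a fall were lower on both. Among secreted phosphatases, PHO12 had 0.0376 and 0.0468 in dbp2 and 1.12 and 1.03 in WT. Its near-identical copy PHO11 had 0.0376 and 0.0419 in dbp2 and 0.226 and 0.215 in WT, so the split of reads between the pair is uncertain. PHO5, the main acid phosphatase, had 0.278 and 0.244 in dbp2 and 0.865 and 0.790 in WT. They fell by 4.49, 2.30 and 1.64 on the log2 scale, and the vacuolar alkaline phosphatase PHO8 by 1.01. SPL2, which restrains low-affinity phosphate transport, had 0.0792 and 0.0833 in dbp2 and 1.17 and 1.14 in WT. PHM6, of unknown function, had 0.0511 and 0.0366 in dbp2 and 0.656 and 0.658 in WT. All of them had groups that did not overlap.

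The VTC complex makes polyphosphate in the vacuole membrane. VTC3 had 0.494 and 0.521 in dbp2 and 3.67 and 3.37 in WT, VTC4, the polymerase, 1.06 and 1.05 in dbp2 and 3.86 and 3.55 in WT, and VTC1 3.70 and 3.81 in dbp2 and 10.6 and 10.4 in WT. The 4 subunit genes fell together but by unlike amounts, from 2.78 for VTC3, 1.80 for VTC4 and 1.48 for VTC1 to 0.76 for VTC2 on the log2 scale. PHO81, the inhibitor of the Pho80 and Pho85 kinase, fell by 0.93. The other regulators did not share this: PHO4 was 0.40 (relative -0.43), PHO2 0.72 (relative -0.10), PHO80 0.84 (relative 0.015) and PHO85 0.86 (relative 0.032) on the log2 scale. Without dbp2 replicate 1 the change of PHO4 was 0.29, and without WT replicate 2 it was 0.19, and neither was called. A few genes of the list rose on both scales. PHM8, a phosphatase that acts on nucleotides, had 2.13 and 2.09 in dbp2 and 0.150 and 0.157 in WT, and PHM7 had 0.177 and 0.155 in dbp2 and 0.0134 and 0.0160 in WT. GIT1, which imports glycerophosphoinositol, had 0.130 and 0.131 in dbp2 and 0.0347 and 0.0314 in WT. Apart from PHO84, PHO12, PHM6, SPL2, VTC3, PHM7 and PHM8, the phosphate genes named here were chosen after their values were seen. Relative to the median gene, 3 of the 27 were called higher and 20 lower in dbp2 than in xrn1.

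**Figure D2:**
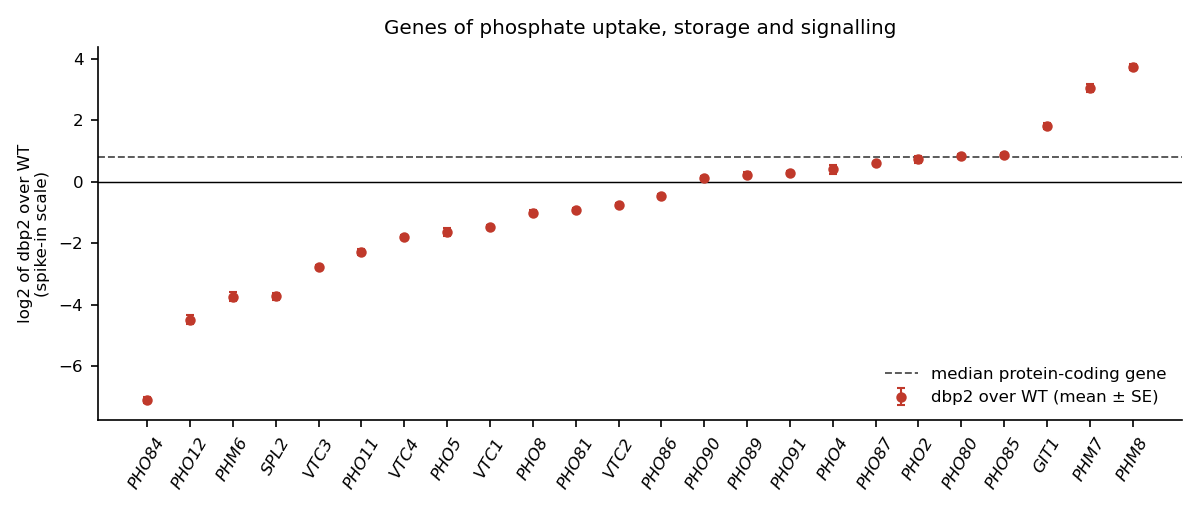
Log2 change of dbp2 over WT on the spike-in scale (points, with SE from limma) for 24 genes of phosphate uptake, storage and signalling, ordered by value, with a dashed line at the median protein-coding gene (0.81). PHO84 lies lowest at -7.12 and PHM8 highest at 3.72, and PHO2, PHO80 and PHO85 lie near the dashed line.

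Sugar metabolism was split between abundant glycolytic genes and genes used without glucose. Of 20 genes of glycolysis and fermentation, 6 were called higher and 12 lower on the spike-in scale. On the relative scale 1 was called higher and 17 lower, with a median relative log2 of -1.49. The other mutants had like medians for this list, -1.67 in xrn1 over WT and -1.27 in tet-MTR4-Dox over WT-Dox. Relative to the median gene, 7 of the 20 were called higher and 8 lower in dbp2 than in xrn1. ADH1, the alcohol dehydrogenase of fermentation, had 39.6 and 38.2 in dbp2 and 144 and 141 in WT. ENO2, enolase, had 54.4 and 53.2 in dbp2 and 181 and 179 in WT, and PGK1, phosphoglycerate kinase, had 44.7 and 42.2 in dbp2 and 104 and 106 in WT. Each of these abundant genes was lower in both dbp2 libraries, and their log2 changes were -1.87, -1.74 and -1.27. TDH2, a glyceraldehyde-3-phosphate dehydrogenase, fell by 1.99. TDH2 and ENO2 have near-identical paralogs, so the values for single copies are uncertain. Of the hexokinases, HXK2, which also acts in glucose repression, had 4.89 and 4.52 in dbp2 and 16.4 and 16.2 in WT, a fall of 1.79. HXK1, which glucose represses, had 1.498 and 1.34 in dbp2 and 0.726 and 0.662 in WT, and was the 1 gene of the list called higher on the relative scale (0.19), but stood at -0.036 when rescaled on all features.

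Glucose-repressed and gluconeogenic genes were higher in 14 of 16 and lower in 1 on the spike-in scale. On the relative scale 11 were higher and 4 lower, with a median relative log2 of 0.67. That median was 0.42 in xrn1 over WT and 0.65 in tet-MTR4-Dox over WT-Dox. Relative to the median gene, 7 of the 16 were called higher and 5 lower in dbp2 than in xrn1. PCK1, the entry enzyme of gluconeogenesis, had 0.233 and 0.180 in dbp2 and 0.0223 and 0.0245 in WT. ICL1, isocitrate lyase of the glyoxylate cycle, had 0.567 and 0.530 in dbp2 and 0.101 and 0.0941 in WT. The invertase gene SUC2, also repressed by glucose, had 0.744 and 0.728 in dbp2 and 0.759 and 0.719 in WT, with overlapping groups, a log2 difference of -0.0055 that was not called and a relative log2 of -0.84. Of 14 hexose transporters and sensors, 10 were called higher and 3 lower on the spike-in scale, and 6 higher and 5 lower on the relative scale. HXT5, a transporter of slow growth, had 0.132 and 0.104 in dbp2 and 0.00362 and 0.00367 in WT, and HXT1, the low-affinity transporter of high glucose, had 1.80 and 1.83 in dbp2 and 3.22 and 2.98 in WT. HXT5 rose by 3.64 and HXT1 fell by 0.77 on the log2 scale. HXT2 fell by 0.61 and HXT7, nearly identical to HXT6, rose by 1.74.

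Genes of the reserve carbohydrates trehalose and glycogen were called higher in 15 of 18 and lower in 2 on the spike-in scale, and higher in 14 and lower in 3 on the relative scale (median relative log2 0.51). GAC1, which directs phosphatase to glycogen synthase, had 0.132 and 0.102 in dbp2 and 0.00877 and 0.00645 in WT. GPH1, glycogen phosphorylase, had 1.06 and 0.920 in dbp2 and 0.155 and 0.147 in WT. PGM1, the minor phosphoglucomutase, was lower, at 0.796 and 0.805 in dbp2 and 1.58 and 1.54 in WT. Of 6 galactose genes, 5 were called higher on the spike-in scale (83.3%, against 84.8% of all features). On the relative scale 3 were called higher and 3 lower. Among them GAL7 rose by 1.85 but stayed at low densities, 0.0378 and 0.0387 in dbp2 and 0.00611 and 0.00598 in WT, GCY1 rose by 3.20, and the activator GAL4 had -0.29, not called, with a relative log2 of -1.02.

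Chaperones moved both ways. Of 29 heat shock and chaperone genes, 15 were called higher and 11 lower on the spike-in scale, and 8 higher and 18 lower on the relative scale, with a median relative log2 of -0.55. The stress-induced HSP26 rose as given above, and HSP30, a plasma membrane protein, had 0.536 and 0.493 in dbp2 and 0.0493 and 0.0393 in WT. Other members fell. SSA2, a cytosolic Hsp70, had 9.69 and 9.22 in dbp2 and 31.5 and 30.1 in WT, and HSP60, the mitochondrial chaperonin, had 2.41 and 2.24 in dbp2 and 6.49 and 6.03 in WT. The Hsp90 genes HSC82 and HSP82 fell by 1.07 and 0.99 on the log2 scale. Heat-induced members were among those that fell, HSP82 with SSA1, by 0.52, and STI1, by 0.62, and HSP104 had a relative log2 of -0.48. SSA2 with SSA1, and HSC82 with HSP82, are near-identical pairs. The heat shock element, 2 inverted GAA triplets with 2 free bases between them and 1 on each side, was in the windows of 11 of the 29 genes (37.9%), against 656 of 5613 protein-coding genes (11.7%).

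**Figure D3:**
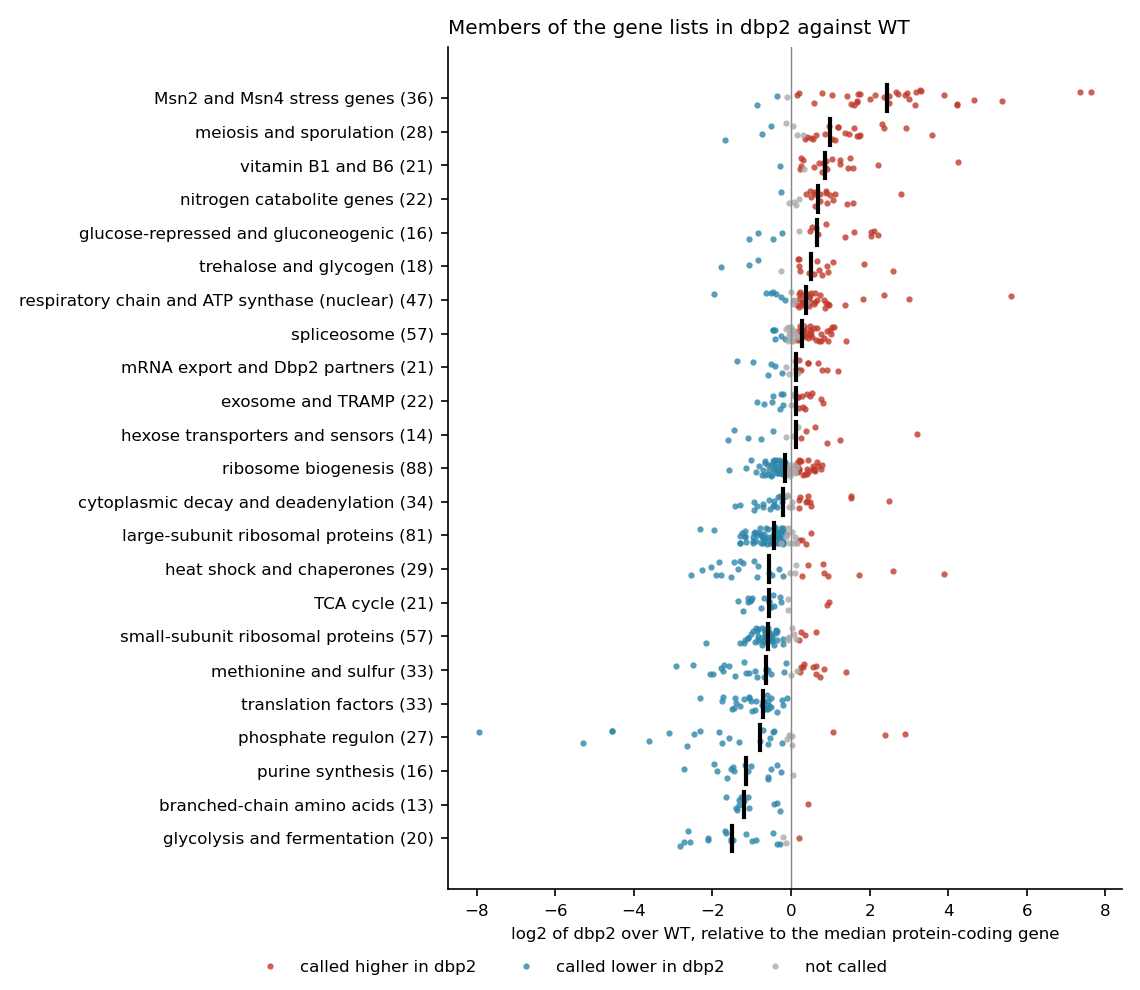
Relative log2 change of dbp2 over WT for each measured member of 23 gene lists (number of members in brackets), where 0 is the median protein-coding gene, points are coloured by the limma call on that scale, and black bars mark list medians. The stress list has the highest median, 2.43, and glycolysis and fermentation the lowest, -1.49, while phosphate genes reach down to -7.94.

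Ribosomal protein genes were mostly higher on the spike-in scale but lower on the relative one. Protein-coding genes of high density tended to be lower on the relative scale too. In the highest quartile of density in WT-Dox, 16.3% of them were called higher and 73.1% lower there (median relative log2 -0.48). Whether ribosomal protein, translation factor or glycolytic genes fell beyond that general trend was not tested. Of 57 small-subunit ribosomal protein genes, 37 were called higher and 8 lower on the spike-in scale, and 4 higher and 47 lower on the relative scale (median relative log2 -0.60). Of 81 large-subunit genes, 55 were called higher and 11 lower on the spike-in scale, and 4 higher and 67 lower on the relative scale (median relative log2 -0.44). Some members fell on both scales. ASC1, the ribosomal scaffold protein that hosts snR24, had 19.6 and 19.0 in dbp2 and 48.5 and 48.0 in WT. RPL8A had 4.47 and 4.45 in dbp2 and 13.0 and 12.03 in WT, and RPL9B had 4.20 and 4.10 in dbp2 and 9.16 and 8.89 in WT. These 3 fell by 1.32, 1.48 and 1.12 on the log2 scale, though the paralogs of RPL8A and RPL9B are near-identical. Others were higher on both scales, among them RPS29A, at 23.7 and 21.6 in dbp2 and 8.26 and 8.07 in WT, and RPL39, at 46.8 and 44.9 in dbp2 and 18.5 and 17.5 in WT.

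All 33 translation factor genes were lower on the relative scale (median -0.72), whereas 15 were called higher and 12 lower on the spike-in scale. TEF4, a subunit of elongation factor 1B, had 7.84 and 7.67 in dbp2 and 21.7 and 21.3 in WT. YEF3, the fungal elongation factor 3, had 43.5 and 43.0 in dbp2 and 67.9 and 63.5 in WT. EFT2, one of the identical pair of elongation factor 2 genes, fell by 0.93, and TIF1, one of the pair that encodes the DEAD-box factor eIF4A, by 0.67 on the log2 scale. TIF11, eIF1A, was the closest of the 33 to the median gene, with -0.10 on the relative scale, and had the largest rise of them on the spike-in scale, 0.74. Of 88 ribosome biogenesis genes, 80 were called higher and 3 lower on the spike-in scale, and 23 higher and 49 lower on the relative scale (median relative log2 -0.16). Relative to the median gene, 81 of these 88 genes were called higher and 3 lower in dbp2 than in xrn1. Likewise 51 small-subunit ribosomal protein genes were higher and 4 lower, and 73 large-subunit ones higher and 5 lower. Of all features, 44.7% were called higher and 29.0% lower in that contrast. These lists were themselves low in xrn1 over WT, with median relative log2 values of -0.95, -1.58 and -1.55 in the order given.

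Mitochondrial genes moved both ways, with unlike medians for the lists below. Of 47 nuclear genes of the respiratory chain and ATP synthase, 46 were called higher and 1 lower on the spike-in scale, and 35 higher and 7 lower on the relative scale (median relative log2 0.39). Besides COX26, the cytochrome c isoform CYC7, which is used without oxygen and under stress, had 0.680 and 0.624 in dbp2 and 0.0385 and 0.0463 in WT. STF1, which stabilises the inhibited ATPase, had 1.80 and 1.40 in dbp2 and 0.181 and 0.160 in WT, and ATP14, a stalk subunit of ATP synthase, had 9.61 and 9.02 in dbp2 and 2.09 and 1.91 in WT. AAC3, the ADP/ATP carrier of cells without oxygen, was the 1 gene called lower, at 0.0746 and 0.0757 in dbp2 and 0.179 and 0.169 in WT. Of 21 genes of the TCA cycle, 12 were called higher and 7 lower on the spike-in scale, but 2 higher and 17 lower on the relative scale. SDH2, a succinate dehydrogenase subunit, rose by 1.79 on the log2 scale. It is on both lists, as is SDH1, which had a relative log2 of -0.46. The share of gene length, described below, in the difference between the lists was not tested.

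Lists of sulfur, branched-chain amino acid and purine synthesis genes were mostly lower on the relative scale. Of 33 methionine and sulfur genes, a list that leaves out the strain marker MET17, 17 were called higher and 12 lower on the spike-in scale, and 10 higher and 21 lower on the relative scale (median relative log2 -0.63). MET6, methionine synthase, had 3.65 and 3.44 in dbp2 and 15.6 and 14.8 in WT. SAM2, which makes S-adenosylmethionine, had 1.00 and 0.884 in dbp2 and 3.03 and 2.96 in WT, and CYS3, of cysteine synthesis, fell by 1.15. MET32, a transcription factor of this pathway, was higher, at 0.316 and 0.295 in dbp2 and 0.0670 and 0.0580 in WT. As MET17 itself was read in dbp2 and hardly in WT, the share of the strain difference in these values was not tested.

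Of 13 branched-chain amino acid genes, 4 were called higher and 9 lower on the spike-in scale, and 1 higher and 12 lower on the relative scale (median relative log2 -1.19). ILV6, the regulatory subunit of acetolactate synthase, had 3.26 and 3.18 in dbp2 and 5.85 and 5.48 in WT, and the activator LEU3 was higher, at 0.645 and 0.644 in dbp2 and 0.266 and 0.269 in WT. Relative to the median gene, all 13 were called lower in dbp2 than in xrn1. Of 16 purine synthesis genes, 6 were called higher and 10 lower on the spike-in scale, and 15 lower on the relative scale (median relative log2 -1.14). ADE17, which closes the purine ring, had 0.945 and 0.869 in dbp2 and 3.45 and 3.34 in WT, and ADE3, of one-carbon metabolism, fell by 1.13. In histidine synthesis HIS4 had 0.589 and 0.617 in dbp2 and 2.61 and 2.36 in WT, and HIS1 fell by 0.97. CAR2, which breaks down arginine, had 0.623 and 0.656 in dbp2 and 2.65 and 2.37 in WT, while CPA1, which makes carbamoyl phosphate for arginine, rose by 1.98.

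Lists that are quiet in rich medium were mostly higher on both scales. Protein-coding genes of low density tended the same way. In the lowest quartile of density in WT-Dox, 63.2% of them were called higher and 11.6% lower on the relative scale (median relative log2 0.47). Whether the lists below rose beyond that general trend was not tested. All 21 vitamin B1 and B6 genes were called higher on the spike-in scale, and 19 higher and 1 lower on the relative scale (median relative log2 0.85). THI4, the thiazole synthase, had 1.06 and 0.930 in dbp2 and 0.0301 and 0.0212 in WT, and its activator THI2 rose by 2.25. All 22 nitrogen catabolite genes were called higher on the spike-in scale, and 17 higher and 1 lower on the relative scale (median relative log2 0.68). PUT4, the proline permease, had 0.213 and 0.172 in dbp2 and 0.0118 and 0.0126 in WT, and DAL7, a malate synthase of allantoin use, had 0.688 and 0.688 in dbp2 and 0.128 and 0.126 in WT. Of 28 meiosis and sporulation genes, 25 were called higher and 1 lower on the spike-in scale, and 21 higher and 3 lower on the relative scale (median relative log2 1.00). SPS100, a spore wall protein, had 0.263 and 0.204 in dbp2 and 0.00631 and 0.00802 in WT, and RIM4, a translational repressor of meiosis, had 0.225 and 0.219 in dbp2 and 0.0127 and 0.0130 in WT. SPO22 rose by 3.01, and SPS4 was lower, at 0.0238 and 0.0317 in dbp2 and 0.0655 and 0.0503 in WT.

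Genes of haploid cells and mating moved both ways. Of 19 haploid-specific and mating genes measured, 13 were called higher and 4 lower on the spike-in scale, and 5 higher and 11 lower on the relative scale (median relative log2 -0.49). Of 7 a-specific genes, 4 were called higher and 2 lower on the spike-in scale, and 1 higher and 5 lower on the relative scale. HO, the mating-type switching endonuclease, inactive in laboratory strains, had 0.0412 and 0.0365 in dbp2 and 0.697 and 0.662 in WT, a fall of 3.93 on the log2 scale. In xrn1 it stood at 0.188 and 0.180. BAR1, the protease that degrades alpha-factor, had 0.534 and 0.502 in dbp2 and 2.75 and 2.65 in WT, and FUS1, of cell fusion, had 0.0851 and 0.0849 in dbp2 and 0.269 and 0.303 in WT. MFA1, given above, rose by 1.37 on the log2 scale.

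Among the genes that handle RNA, those of mRNA export and the partners of Dbp2 moved both ways relative to the median gene. Of 21 genes of mRNA export and Dbp2 partners, 19 were called higher and 1 lower on the spike-in scale, and 10 higher and 6 lower on the relative scale (median relative log2 0.13), shares of 47.6% and 28.6%, against the 43.8% and 28.2% of all features. YRA1, chosen after its values were seen like MEX67, had 5.81 and 5.77 in dbp2 and 2.81 and 2.64 in WT, a relative log2 of 0.25, and MEX67 had 0.970 and 0.928 in dbp2 and 0.592 and 0.574 in WT, a relative log2 of -0.13 that was not called. The export helicase SUB2 had 6.59 and 6.26 in dbp2 and 9.39 and 9.15 in WT, lower on both scales. CDC31 and MTR2 rose by 2.01 and 1.75 on the log2 scale. Of 34 cytoplasmic decay genes, 27 were called higher and 2 lower on the spike-in scale, and 11 higher and 18 lower on the relative scale. XRN1, whose absence defines XUTs, had 1.59 and 1.57 in dbp2 and 2.49 and 2.28 in WT, a fall of 0.59 on the log2 scale. PAT1, a decapping activator, fell by 0.47, while DCS2 and EDC1 rose by 3.29 and 2.35. DCS2, an inhibitor of scavenger decapping, is also on the stress list.

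Of 22 exosome and TRAMP genes, 20 were called higher on the spike-in scale (90.9%, against 84.8% of all features). On the relative scale 11 were called higher and 8 lower (50.0% and 36.4%, against 43.8% and 28.2% of all features). MTR4 itself had 1.501 and 1.52 in dbp2 and 1.61 and 1.51 in WT, with overlapping groups, a log2 difference of -0.042 that was not called and a relative log2 of -0.88. All 57 spliceosome genes were called higher on the spike-in scale, and 35 higher and 6 lower on the relative scale (median relative log2 0.29), led by BUD13 of the retention and splicing complex, at 0.583 and 0.535 in dbp2 and 0.120 and 0.114 in WT. Genes with an intron did not stand far from those without: outside the ribosomal proteins the median relative log2 was 0.13 for 164 genes with an intron and -0.0037 for 5311 without.

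Noncoding classes had higher medians than protein-coding genes. Of 1452 XUTs, 1263 were called higher and 16 lower on the spike-in scale (87.0% and 1.10%, against 84.8% and 5.32% of all features). On the relative scale 808 were called higher and 132 lower (55.6% and 9.09%, against 43.8% and 28.2% of all features), with a median relative log2 of 0.57. The medians were 0.49 for 894 CUTs, with 432 called higher and 59 lower, and 0.46 for 1232 NUTs, with 659 called higher and 103 lower on the relative scale. In tet-MTR4-Dox over WT-Dox, the relative medians were 2.20 for XUTs, 3.74 for CUTs and 2.99 for NUTs. Directly against xrn1 on the relative scale, 571 CUTs were called higher and 65 lower in dbp2, while of XUTs 379 were called higher and 461 lower. In xrn1 over WT the relative medians were -0.38 for CUTs and 0.68 for XUTs. Positions of these transcripts were not analysed here, so overlap with genes on either strand was not analysed either.

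Single noncoding transcripts changed far more than their class. XUT0788 had 0.294 and 0.204 in dbp2 and 0.00406 and 0.00155 in WT, and XUT0586 had 0.211 and 0.231 in dbp2 and 0.0114 and 0.00871 in WT. XUT1395 rose by 3.79 on the log2 scale, and XUT0109 was lower, at 0.928 and 0.775 in dbp2 and 2.00 and 2.12 in WT. CUT122 had the largest rise of its class, at 12.8 and 12.6 in dbp2 and 0.0417 and 0.0489 in WT, a log2 change of 7.95, and CUT172 had 0.627 and 0.632 in dbp2 and 0.0306 and 0.0467 in WT. CUT290 was lower, with -1.22 ± 0.32 (SE). NUT0227 had 49.4 and 46.0 in dbp2 and 0.135 and 0.125 in WT, but its reads were within 10% of those of HSP12 in every library, so it is not a separate result. NUT0604 and NUT0034 rose by 4.72 and 4.59 on the log2 scale, and NUT1082 was lower, at 0.106 and 0.0778 in dbp2 and 0.293 and 0.304 in WT.

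**Figure D4:**
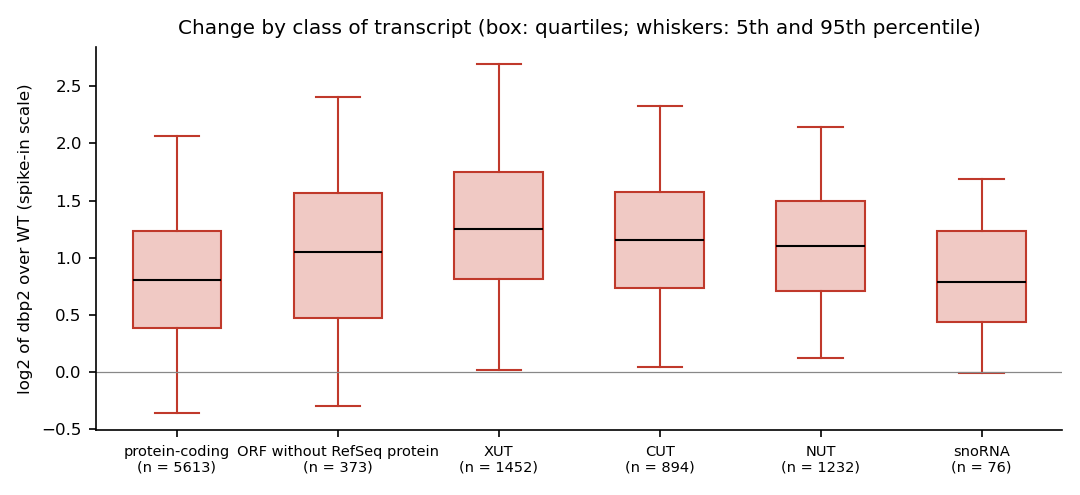
Log2 change of dbp2 over WT on the spike-in scale by class of transcript (box from the lower to the upper quartile with the median, whiskers from the 5th to the 95th percentile, number of features under each name). The median is 1.25 for XUTs, 1.16 for CUTs and 1.10 for NUTs, above the 0.81 of protein-coding genes, and the boxes overlap. Protein-coding genes in the lowest quartile of density in WT-Dox, not drawn apart, have a median of 1.25.

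The 76 snoRNAs, which guide chemical changes of ribosomal RNA, had a median close to that of protein-coding genes, with 63 called higher and 4 lower on the spike-in scale, and 20 higher and 22 lower on the relative scale (median relative log2 -0.05). A few box C/D snoRNAs, which guide 2'-O-methylation, rose well beyond that. snR78, of a polycistron that makes 7 snoRNAs, had 13.3 and 11.1 in dbp2 and 1.90 and 1.66 in WT, a log2 change of 2.77 ± 0.09 (SE, limma adjusted p = 5.07e-09). snR52, transcribed by RNA polymerase III, had 36.2 and 32.4 in dbp2 and 6.26 and 6.45 in WT, a log2 change of 2.43. Their sequences are shown, from the RefSeq genome (R64), because they are the snoRNAs with the largest rise, with box C (TGATGA), searched near the 5′ end, and box D (CTGA), searched near the 3′ end, in capitals, on the RNA strand only. Each holds a further CTGA nearer the middle, left in lower case.
snR78: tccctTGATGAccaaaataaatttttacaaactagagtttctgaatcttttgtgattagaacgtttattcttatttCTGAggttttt
snR52: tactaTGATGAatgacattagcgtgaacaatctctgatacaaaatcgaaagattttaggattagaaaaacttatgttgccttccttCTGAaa
snR78 lies at XIII:297278-297364 on the plus strand and snR52 at V:431129-431220 on the minus strand. The H/ACA snoRNAs snR85, snR161 and snR191, which guide pseudouridylation, rose by 2.25, 1.85 and 1.65 on the log2 scale, and the box C/D snoRNA snR56 by 1.69. Others fell: snR8 had 7.92 and 6.87 in dbp2 and 20.8 and 23.2 in WT, snR68 had 2.62 and 2.00 in dbp2 and 6.46 and 7.05 in WT, and snR65 fell by 0.43. snR8 and snR68 lay lower in both dbp2 libraries, by 1.57 and 1.56 on the log2 scale. Relative to the median gene, 73 of the 76 snoRNAs were called higher and 2 lower in dbp2 than in xrn1, against 44.7% and 29.0% of all features. The snoRNAs were themselves low in xrn1 over WT, with a median relative log2 of -2.17, against the -0.05 of dbp2 over WT.

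Across protein-coding genes, the relative change went with gene length and with usual level. In quartiles of gene length, with edges at 732, 1212 and 1890 bases, the median relative log2 was 0.29, 0.04, -0.08 and -0.26 from the shortest to the longest. In the shortest quartile 55.7% of genes were called higher and 22.8% lower, and in the longest 21.6% higher and 59.4% lower. In quartiles of density in WT-Dox, libraries that take no part in the comparison, the median relative log2 was 0.47, 0.09, -0.14 and -0.48 from the lowest to the highest. With quartiles of density in WT itself, which enters the comparison, it was 0.52, 0.09, -0.14 and -0.52. Length and level did not stand for each other: among genes of the lowest WT-Dox quartile the shortest had a median of 0.75 and the longest 0.18, and among those of the highest quartile the shortest had -0.10 and the longest -0.97. In xrn1 over WT, which shares its WT libraries with dbp2, the medians by length were -0.11, -0.06, -0.03 and -0.22, and in tet-MTR4-Dox over WT-Dox 0.23, -0.03, -0.07 and -0.09. Chromosomes differed little, with median relative log2 values between -0.10 on X and 0.03 on VI. These are descriptions across genes, which are not independent replicates.

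**Figure D5:**
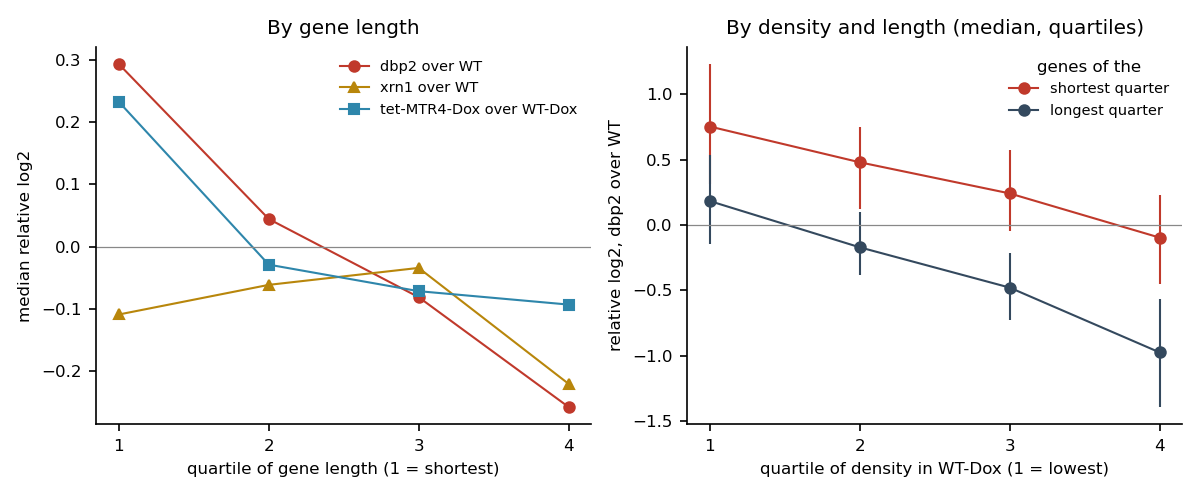
Left, median relative log2 of protein-coding genes by quartile of gene length in dbp2 over WT (circles), xrn1 over WT (triangles) and tet-MTR4-Dox over WT-Dox (squares). Right, median (bars: quartiles) of dbp2 over WT by quartile of density in WT-Dox, for the shortest and the longest quartile of genes. The shortest genes lie above the longest in each density quartile, with 0.75 and 0.18 in the lowest and -0.10 and -0.97 in the highest.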

How the data were processed

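The deposited values are a signal: the authors' normalised density per feature in 10 libraries, with columns of replicate means that were not used as samples. Per the submitters' processing notes, the R64 build and the tools featureCounts 2.0.0, HISAT2 2.2.0, DESeq2 and Trim Galore were used, in roles not given there. Each value is a whole number of reads over feature length and a factor per library (100% of values, tolerance 0.02 reads), and the ERCC RNAs have equal medians in all libraries. That the factors follow them is inferred from the values. Features with a mean density under 0.0344 were left out, which kept 9666 of 10740 above 0. The log2 of density plus 0.00626 was fitted with limma 3.58.1 in R 4.3.3 (lmFit and trended eBayes, with degrees of freedom of 5 for the residuals and 4.84 for the prior) over all 5 groups of 2, so an SE is pooled over them, and a fold change understates the change of low genes. No fold change is a bound: those of genes with a density near or under the added value in either group depend on it. DBP2, LYS2, MET17, HXT5 and GAL7 are among them. Tables were handled with Python 3.11.15.

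The labels give 2 biological replicates per group. Library numbers did not pair: the deviations of same-numbered dbp2 and WT libraries correlated at 0.00783. Members and lists were chosen with earlier results of these data known, as were the tests. Named are DBP2, its neighbours and strain markers, the called features with non-overlapping groups and the largest changes (12 protein-coding genes each way of at least median density, 4 XUTs, 4 CUTs, 4 NUTs and 6 snoRNAs that rose, and 3 of each that fell), and up to 5 list members along the list's median and 2 against it. Not all of them are printed. STE3, SAG1, SSA1, STI1, HSP104 and the farther neighbours of DBP2 were chosen after their values were seen. XUT0427 had no WT reads and is not reported. In simulated data of 9666 features for dbp2 against WT, 200 features were changed in each of 5 draws. The share called was 52.2% at a 1.5-fold change, 65.0% at 2-fold, 83.2% at 4-fold and 0.167% where nothing was changed. In the data themselves most features were called, which loosens the adjusted cut, so these shares do not carry over to them. Alternatives were other added values and filters, the 4 libraries alone, other scalings, voom on recovered reads, a replicate block and each library left out.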

Additional observations from a re-analysis of the deposited data

How the results depend on the processing

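Scaling was the choice that mattered most. Rescaled on the median protein-coding gene and on the median of all features, the features called higher numbered 4233 and 2995 and those lower 2722 and 3630, and the median protein-coding log2 change was -0.017 and -0.24. The same 2 scalings turned CYB5 to -0.75 and -0.98, YNL115C to -0.094 and -0.32, PHO4 to -0.43 and -0.66, PHO2 to -0.10 and -0.33, TIF11 to -0.097 and -0.33, MEX67 to -0.13 and -0.36, HSP104 to -0.48 and -0.71, YNL108C to -0.74 and -0.96, DMA2 to -0.12 and -0.34, and R0020C to -0.16 and -0.39, and the second alone turned MSN2 to -0.083, PHO80 to -0.21, PHO85 to -0.20 and HXK1 to -0.036. These follow from taking away a shift larger than the change. Over 159 features, the other settings gave 1737 values on the same side of zero and of the threshold, 4 that lost their call, 1 that gained one and none reversed. With a library left out, 7815 to 8064 features were called higher and 430 to 524 lower. On the relative scale, genes of glycolysis called higher were 2 with no filter and 0 to 1 with a library left out (0 without dbp2 replicate 1 or WT replicate 2), those of the small ribosomal subunit 2 to 4 (2 without dbp2 replicate 1, dbp2 replicate 2 or WT replicate 1), TCA cycle genes 1 with a stricter filter, and meiosis genes called higher 11 with a stricter filter and called lower 5 with no filter. Oxidative stress genes called lower were 8 in a fit of the 4 libraries alone, and those of beta oxidation 2 to 4 with a library left out (2 without dbp2 replicate 2). The replicate block, for numbers that do not pair the samples, gave 8222 higher and 524 lower, and 4209 and 2715 on the relative scale. The log2 change of DBP2 lay between -10.00 and -6.94 over added values, voom and rescaling. Tests of edgeR and DESeq2 on recovered reads were not run, since the worth of a read depends on feature length. With 2 libraries per group, features at few reads in either strain are the least certain.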

Other observations

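Some groups outside the comparisons above also held clear values. The 2-micron plasmid is a selfish DNA circle of yeast nuclei, and its genes named here were chosen after their values were seen. R0010W, the recombinase FLP1, had 6.35 and 6.21 in dbp2 and 0.462 and 0.488 in WT, a log2 change of 3.71 (relative 2.88). R0040C, the partition protein REP2, had 8.76 and 8.20 in dbp2 and 2.11 and 2.08 in WT. R0020C, the partition protein REP1, had 1.81 and 1.80 in dbp2 and 1.11 and 1.15 in WT, a relative log2 of -0.16 that was not called. The number of plasmid copies per cell was not tested.

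Genes of heme and sterol synthesis were called higher in 17 of 34 and lower in 12 on the spike-in scale, but higher in 2 and lower in 24 on the relative scale. HEM13, the coproporphyrinogen oxidase, had 0.740 and 0.646 in dbp2 and 1.37 and 1.33 in WT, and ERG10, the first enzyme of the mevalonate pathway, had 3.62 and 3.48 in dbp2 and 5.53 and 5.46 in WT. ERG6, which makes ergosterol's side chain, fell by 0.50, and HEM4 rose by 1.27 on the log2 scale. Of 27 iron regulon genes, 22 were called higher and 4 lower on the spike-in scale, and 10 higher and 13 lower on the relative scale. FET3, the ferroxidase of iron uptake, had 4.15 and 3.76 in dbp2 and 6.48 and 5.96 in WT, whereas ISU2, an iron-sulfur scaffold, had 6.45 and 6.56 in dbp2 and 1.36 and 1.25 in WT. Of 17 genes of beta oxidation and peroxisomes, 16 were called higher on the spike-in scale, and 11 higher and 4 lower on the relative scale. CRC1, the mitochondrial carnitine carrier, had 0.116 and 0.108 in dbp2 and 0.00868 and 0.00716 in WT, and FOX2, of fatty acid breakdown, had 0.196 and 0.197 in dbp2 and 0.0489 and 0.0460 in WT. Of 24 oxidative stress genes, 22 were called higher on the spike-in scale, and 13 higher and 5 lower on the relative scale. PRX1, the mitochondrial peroxiredoxin, had 2.85 and 2.59 in dbp2 and 0.562 and 0.513 in WT, and CTA1, the peroxisomal catalase, had 0.157 and 0.146 in dbp2 and 0.0378 and 0.0342 in WT.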
